A study of Mus musculus with 9 samples.

Results

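The postsynaptic density of excitatory synapses is built on 3 layers of scaffold proteins, and the genes of these layers are described here: Dlg1, Dlg2, Dlg3 and Dlg4 of the first layer, Dlgap1, Dlgap2 and Dlgap3 of the middle layer, and Shank1, Shank2 and Shank3 of the deepest layer. All rows of the deposited transcript tables that carry these 10 gene names were taken, which gave 96 of 115220 transcripts and 10 of 47593 gene names. All 10 genes passed the filter on low values, a mean of at least 0.5 FPKM over the libraries compared, and 61 of the 96 transcripts did so over the 9 libraries. FPKM is the number of fragments scaled by the length of the transcript and by the mapped fragments of the library, a level per length, so that genes can be compared with each other, and the level of a gene is the sum over its transcripts.

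RNA sequencing was done on ribosome-associated RNA of neurons of the mPFC, the medial prefrontal cortex, in adult C57BL/6 mice, in 3 groups of 3 libraries. In the Fxr1 wake group, GFP-Fxr1, a fusion of the RNA-binding protein Fxr1 with green fluorescent protein, was overexpressed in mPFC and the mice were kept awake. In the GFP wake group, GFP was overexpressed in the same place as control and the mice were likewise kept awake. In the GFP sleep group, GFP was overexpressed and the mice slept. All groups thus carried an overexpressed GFP protein, and in all of them RNA was pulled down with a tagged ribosomal protein (RiboTag immunoprecipitation) and made into stranded total RNA libraries. The driver of the tagged ribosomal protein, the length of enforced wake and the number of mice per library are not given in the sources used here, so p-values measure the spread between these libraries, which may be technical.

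Dlg proteins are membrane-associated guanylate kinases whose PDZ domains hold the tails of NMDA receptors, of AMPA receptor auxiliary subunits and of potassium channels at the synapse. Their guanylate kinase domain binds Dlgap proteins, which in turn bind the PDZ domain of Shank proteins, and Shank proteins reach Homer, cortactin and the actin cytoskeleton. The amount of these scaffolds in the postsynaptic density is known to follow synaptic activity, and synaptic strength and the makeup of the postsynaptic density have been reported to differ between sleep and wake in the rodent cortex.

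Several sequences matter for the values that follow. Dlg4, the gene of PSD-95, has 2 main transcripts, and Dlg4-203 (ENSMUST00000108588) begins its coding sequence with 180 bases, 60 codons, that Dlg4-201 (ENSMUST00000018700) does not code for. The stretch lies at chr11:70018920-70030624 on the plus strand of GRCm38 and is written spliced. Capitals mark the start codon and the TGT codons 3 and 5, the cysteines to which palmitate is attached in PSD-95 and by which it is anchored at the membrane. The first 60 coding bases of Dlg4-201, at chr11:70030625-70030896, have only their start codon in capitals.
Dlg4-203: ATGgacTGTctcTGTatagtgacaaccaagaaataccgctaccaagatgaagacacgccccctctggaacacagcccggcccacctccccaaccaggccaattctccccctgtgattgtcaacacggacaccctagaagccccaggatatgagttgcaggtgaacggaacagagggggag
Dlg4-201: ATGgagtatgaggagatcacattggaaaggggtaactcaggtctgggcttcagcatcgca

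The other set illustrates base composition, which the differences of whole genes between groups followed, as given further on. Capitals there mark G and C. Dlgap1-211 (ENSMUST00000148486) starts with 75 coding bases that Dlgap1-208 (ENSMUST00000135938) does not code for, at chr17:70522188-70522262 with 46.7% G and C. Dlgap1-208 starts with 975 coding bases that Dlgap1-211 does not code for. The first 75 of these, at chr17:70516022-70516096, have 60% G and C. The first 90 coding bases of Dlg2-204 (ENSMUST00000107196, spliced from chr7:91091007-91449801) have 42.2% G and C, against 65.6% in the first 90 of Dlgap3-203 (ENSMUST00000106094, chr4:127194613-127194702). All lie on the plus strand, and all sequences were read from the GENCODE transcripts of GRCm38. For the trend, GC content was taken over the whole longest transcript of a gene, not over these first bases. Dlg2-204 and Dlgap3-203 are the longest of their genes but not the most abundant. Dlgap3-203 took 11.6% of its gene over the 9 libraries, against 73.1% for Dlgap3-202. Dlgap3-203 differed by -0.19 (limma adjusted p = 0.726) in Fxr1 wake against GFP wake. In GFP wake against GFP sleep it differed by 0.29 (limma adjusted p = 0.385).
Dlgap1-211: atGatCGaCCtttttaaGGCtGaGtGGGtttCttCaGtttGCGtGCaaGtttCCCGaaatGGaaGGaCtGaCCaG
Dlgap1-208: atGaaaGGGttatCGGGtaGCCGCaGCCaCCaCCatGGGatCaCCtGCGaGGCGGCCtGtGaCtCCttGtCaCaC
Dlg2-204: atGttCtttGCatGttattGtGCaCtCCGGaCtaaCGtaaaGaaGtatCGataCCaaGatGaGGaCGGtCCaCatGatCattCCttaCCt
Dlgap3-203: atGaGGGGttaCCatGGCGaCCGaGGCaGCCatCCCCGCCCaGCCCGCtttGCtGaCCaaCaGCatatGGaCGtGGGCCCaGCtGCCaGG

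Fxr1 itself, as the check of the labels, had 91.1, 67.7 and 71.8 FPKM in the Fxr1 wake libraries, against 34.8, 33.9 and 31.1 FPKM in the GFP wake libraries and 31.7, 34.8 and 31.0 FPKM in the GFP sleep libraries. Its log2 difference between Fxr1 wake and GFP wake was 1.17 (SE 0.13, limma adjusted p = 0.0366), and the adjusted p was 0.0501 to 0.224 without any 1 of GFP wake replicates 1 to 3 or Fxr1 wake replicates 2 and 3. Depth was estimated at 29900000 to 37500000 fragments per library. For this, the most frequent low value of FPKM times length, in genes with a single transcript, was assumed to be 1 fragment. Fxr1 wake replicate 1 stood apart, at 63.1 on the first principal component of all genes (56.3% of the variance), where the other 8 libraries had -30.6 to 13.1. The libraries also differed in how levels went with the GC content of the longest transcript: the Spearman correlation of each gene's deviation from its mean with GC content was -0.81, -0.42 and -0.26 in the Fxr1 wake libraries, 0.65, 0.70 and 0.74 in the GFP wake libraries, and 0.25, -0.39 and 0.17 in the GFP sleep libraries. Differences of the scaffold genes between Fxr1 wake and GFP wake are therefore also given without Fxr1 wake replicate 1 or after subtraction of the trend with GC content and length, a step that also removes any real difference that follows GC content. The markers of excitatory neurons, such as Slc17a7 and Camk2a, were all detected, and so were those of glia: no marker of the 7 lists used was at 0 in all libraries, and the 10 astrocyte markers summed to 362 to 417 FPKM in Fxr1 wake, 435 to 511 FPKM in GFP wake and 404 to 451 FPKM in GFP sleep.

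In the GFP wake libraries Dlg2 had the highest mean level of the 10 genes, 104 ± 2.79 FPKM (SD, n = 3), followed by Dlg4 with 98.3 ± 10.6, Dlgap1 with 77.2 ± 1.71, Dlg1 with 46.7 ± 0.804 and Dlg3 with 41.0 ± 0.577 FPKM. Dlgap2 with 22.3 ± 1.75 and Dlgap3 with 19.1 ± 3.19 FPKM came next, and Shank1 with 9.61 ± 2.52, Shank2 with 9 ± 2.75 and Shank3 with 7.93 ± 0.943 FPKM were the lowest. The ranges of Dlg2 and Dlg4 overlapped, as did those of Dlgap2 and Dlgap3 and those of the 3 Shank genes, so the order within these neighbours was not larger than the spread. Dlg2 stood first by the sum of all its transcripts, of which coding ones took 35.0%, 32.7% and 31.9% in the GFP wake libraries. The rank is thus not that of its coding messages. By the same sums, the order between layers was alike in the GFP sleep libraries in one respect: no Shank gene exceeded 8.16 FPKM there and no Dlg gene was below 36.1 FPKM. Coding transcripts took 34.9%, 29.0% and 63.7% of Dlg2 in those libraries.

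**Figure D1:**
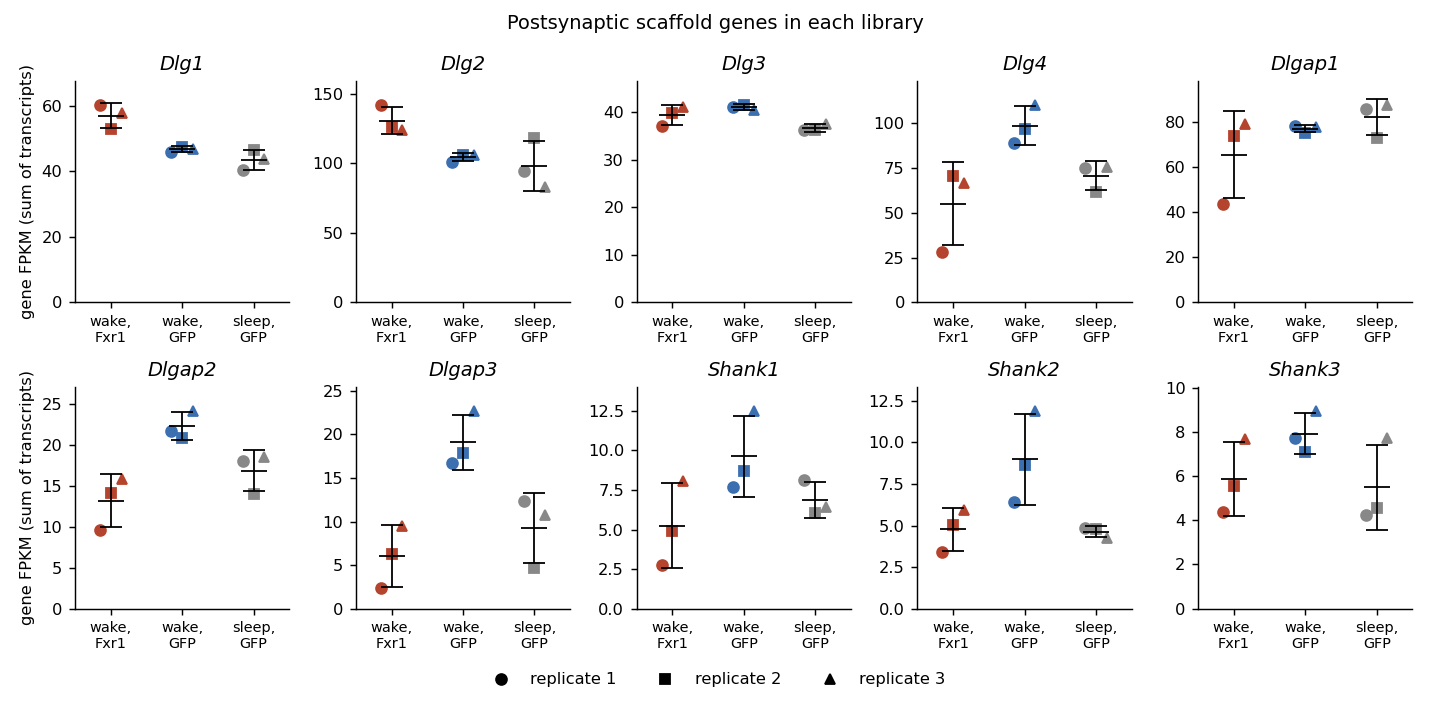
Gene level (FPKM, sum of transcripts, y axis from 0) of the 10 scaffold genes in each of the 9 libraries, with Fxr1 wake, GFP wake and GFP sleep from left to right; marker shape gives the replicate, and the bar the mean and SD of 3 libraries. Dlg4, Dlgap2, Dlgap3 and Shank2 are higher in every GFP wake library than in any GFP sleep or Fxr1 wake library, while Dlg1 and Dlg2 are highest in the Fxr1 wake libraries.

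The comparison of enforced wake with sleep, both with GFP, asked how the scaffold messages on ribosomes differ between the states. Dlg4, Dlgap2, Dlgap3 and Shank2 rose in enforced wake and no scaffold gene fell: 4 of 10 passed, each higher, where 28.3% of the 14673 genes tested passed, 15.7% as higher and 12.7% as lower. The median log2 difference of the 10 genes was 0.40, against 0.00 (0.0043) over all genes. In these bulk libraries fewer cells of a type and less RNA per cell cannot be told apart. In a fit of all 9 libraries 0 of 10 passed (9.56% of all genes did), and without the filter on low values 0 of 10 (10.2% of all genes). Groups did not overlap in 5 of 10 scaffold genes, all of them higher in enforced wake, where 49.5% of all genes did not overlap and 25.8% lay higher in every library. Once the GC and length trend was subtracted, none of the 4 passed, and Dlg1 alone passed, as higher (1 of 10, where 23.6% of all genes passed and 10.4% as higher).

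Among the Dlg genes, Dlg4 (chromosome 11, 70016942 to 70047522, GRCm38) codes for PSD-95, known as a main scaffold protein of mature excitatory synapses. It had 88.7, 96.6 and 110 FPKM in the GFP wake libraries, against 74.9, 61.4 and 75.6 FPKM in the GFP sleep libraries. Every GFP wake library was above every GFP sleep library. The rise was 0.47 on the log2(FPKM + 1) scale (SE 0.11, 95% interval 0.21 to 0.73, limma adjusted p = 0.0235), 1.39-fold by the means. It no longer passed without GFP wake replicate 2 (adjusted p = 0.0666) or replicate 3 (0.0713), and with the GC and length trend removed the difference was 0.14 (SE 0.06, adjusted p = 0.114).

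Dlg3 (chromosome X, 100767722 to 100818410), whose protein SAP102 is known from young synapses and from the trafficking of NMDA receptors, had 41.1, 41.5 and 40.3 FPKM in the GFP wake libraries and 36.1, 36.3 and 37.5 FPKM in the GFP sleep libraries. These groups did not overlap either, with a log2 difference of 0.16 (SE 0.05) that missed the threshold at a limma adjusted p of 0.0508. Dlg1 (chromosome 16, 31663443 to 31875129), the gene of SAP97, which binds the AMPA receptor subunit GluA1, had 45.9, 47.5 and 46.9 FPKM in the GFP wake libraries, against 40.5, 46.6 and 43.7 FPKM in the GFP sleep libraries. Its groups overlapped, and its log2 difference of 0.10 (SE 0.06, limma adjusted p = 0.277) became 0.20 (SE 0.05, adjusted p = 0.0308) with the GC and length trend removed. Dlg2 (chromosome 7, 90476672 to 92449247), the gene of PSD-93, had 101, 106 and 106 FPKM in the GFP wake libraries and 94.1, 118 and 82.9 FPKM in the GFP sleep libraries, where replicates 2 and 3 held the highest and the lowest value of the 6 libraries. Its log2 difference was 0.10 (95% interval -0.20 to 0.39, limma adjusted p = 0.586).

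Of the middle layer, Dlgap3 (chromosome 4, 127169204 to 127237022), whose loss makes mice groom excessively, had the largest log2 difference of the 10 genes. It had 16.7, 17.9 and 22.7 FPKM in the GFP wake libraries, against 12.3, 4.69 and 10.7 FPKM in the GFP sleep libraries. All GFP wake libraries were above all GFP sleep libraries, with the lowest value in GFP sleep replicate 2. The rise was 1.05 (SE 0.32, 95% interval 0.30 to 1.80, limma adjusted p = 0.0479), 2.06-fold by the means. Without GFP sleep replicate 2 it was 0.67 (adjusted p = 0.0282), it did not pass without GFP sleep replicate 3 (0.0626) or GFP wake replicates 1, 2 and 3 (0.0878, 0.103 and 0.142), and with the GC and length trend removed it was 0.52 (SE 0.22, adjusted p = 0.140).

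Dlgap2 (chromosome 8, 14095865 to 14847680) had 21.8, 20.9 and 24.2 FPKM in the GFP wake libraries, against 18.1, 14 and 18.5 FPKM in the GFP sleep libraries. The groups did not overlap, and the rise of 0.39 (SE 0.12, limma adjusted p = 0.0483) lay close to the threshold. It did not pass with any 1 of the 6 libraries left out (adjusted p of 0.0543 to 0.142), and was 0.15 (SE 0.07, adjusted p = 0.172) with the GC and length trend removed. Dlgap1 (chromosome 17, 69969073 to 70821413), the most abundant Dlgap gene here, had 78.3, 75.2 and 78.0 FPKM in the GFP wake libraries and 85.7, 73.1 and 87.7 FPKM in the GFP sleep libraries. Its groups overlapped, with a log2 difference of -0.09 (95% interval -0.27 to 0.10, limma adjusted p = 0.443).

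Of the deepest layer, Shank2 (chromosome 7, 144001928 to 144424494) had 6.44, 8.65 and 11.9 FPKM in the GFP wake libraries, against 4.87, 4.78 and 4.27 FPKM in the GFP sleep libraries. The GFP wake values ranged widely, and all were above the narrow range of the GFP sleep values. The rise was 0.79 (SE 0.19, 95% interval 0.34 to 1.24, limma adjusted p = 0.0253), 1.94-fold by the means. It did not pass without GFP sleep replicate 2 or 3 (adjusted p = 0.0583 and 0.0651) or GFP wake replicate 2 (0.0700), and was 0.50 (SE 0.17, adjusted p = 0.0800) with the GC and length trend removed.

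Shank1 (chromosome 7, 44310253 to 44360572) had 7.66, 8.72 and 12.5 FPKM in the GFP wake libraries and 8.16, 6.04 and 6.42 FPKM in the GFP sleep libraries. Shank3 (chromosome 15, 89499623 to 89560261), whose loss on one chromosome causes Phelan-McDermid syndrome in humans, had 7.72, 7.11 and 8.96 FPKM in the GFP wake libraries and 4.26, 4.54 and 7.73 FPKM in the GFP sleep libraries. In each gene 1 GFP sleep library reached into the GFP wake range. The log2 differences were 0.41 (SE 0.18, limma adjusted p = 0.127) for Shank1 and 0.49 (SE 0.20, limma adjusted p = 0.109) for Shank3. With the GC and length trend removed they were -0.12 and -0.05. Without GFP sleep replicate 3, Shank3 passed with 0.72 (adjusted p = 0.0160).

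The comparison of Fxr1 wake with GFP wake asked how overexpressed Fxr1 alters the ribosome-bound messages of mice kept awake. With limma 0 of 10 scaffold genes passed, where 60 of 14563 genes, 0.412%, did, and 7 of the 10 had an unadjusted p below 0.05, as had 38.3% of all genes. The values still lay apart: Dlg4, Dlgap2, Dlgap3 and Shank2 were lower in every Fxr1 wake library than in any GFP wake library, and Dlg1 and Dlg2 were higher in every one. Such separation was found in 6 of the 10 scaffold genes and in 52.5% of all genes, of which 20.3% lay higher and 32.3% lower in every Fxr1 wake library. The median log2 difference of the scaffold genes was -0.57, against -0.06 over all genes tested. Without Fxr1 wake replicate 1, which stood apart, 5 of 10 passed, where 22.8% of all genes did, 5.69% as higher and 17.1% as lower: Dlg1 and Dlg2 were higher, and Dlg4, Dlgap2 and Dlgap3 lower. In a fit of all 9 libraries, which share an estimate of the spread, 4 of 10 passed, Dlg1 as higher and Dlgap2, Dlgap3 and Shank2 as lower, where 23.0% of all genes did, 6.71% as higher and 16.3% as lower. The GFP wake libraries are the same in this comparison and in that with sleep, so the signs of the 2 comparisons are not independent.

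Dlg1 had 60.3, 52.9 and 57.8 FPKM in the Fxr1 wake libraries, against 45.9, 47.5 and 46.9 FPKM in the GFP wake libraries. Dlg2 had 142, 126 and 124 FPKM in the Fxr1 wake libraries, against 101, 106 and 106 FPKM in the GFP wake libraries. In both genes the lowest Fxr1 wake library was above the highest GFP wake library. The log2 differences were 0.28 (SE 0.08, limma adjusted p = 0.0901) for Dlg1 and 0.32 (SE 0.09, limma adjusted p = 0.0880) for Dlg2. Without Fxr1 wake replicate 1, Dlg1 was higher by 0.24 (adjusted p = 0.0416) and Dlg2 by 0.27 (adjusted p = 0.0213). With the GC and length trend removed from all libraries the differences were 0.09 (adjusted p = 0.424) and 0.16 (adjusted p = 0.175).

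Dlg4 had 28.2, 70.3 and 66.6 FPKM in the Fxr1 wake libraries, against 88.7, 96.6 and 110 FPKM in the GFP wake libraries. Replicate 1 was the lowest by far, and the other 2 Fxr1 wake libraries were also below all GFP wake libraries. The log2 difference was -0.93 (SE 0.34, 95% interval -1.74 to -0.11, limma adjusted p = 0.108), and 0.560-fold by the means. Without Fxr1 wake replicate 1 it was -0.51 (adjusted p = 0.0215), and with the GC and length trend removed -0.26 (SE 0.17, adjusted p = 0.382). Dlg3 had 37.0, 39.7 and 41.1 FPKM in the Fxr1 wake libraries and 41.1, 41.5 and 40.3 FPKM in the GFP wake libraries, with a log2 difference of -0.06 (95% interval -0.25 to 0.13, limma adjusted p = 0.581) whose sign changed to 0.09 with libraries centred on their medians and to 0.06 with the GC and length trend removed.

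Dlgap3 had 2.40, 6.32 and 9.52 FPKM in the Fxr1 wake libraries, against 16.7, 17.9 and 22.7 FPKM in the GFP wake libraries. The highest Fxr1 wake library was thus well below the lowest GFP wake library, with a log2 difference of -1.64 (SE 0.40, 95% interval -2.59 to -0.69, limma adjusted p = 0.0878). Without Fxr1 wake replicate 1 it was -1.18 (adjusted p = 0.0150), and with the GC and length trend removed -0.69 (SE 0.17, adjusted p = 0.135). Dlgap2 had 9.65, 14.1 and 15.9 FPKM in the Fxr1 wake libraries, against 21.8, 20.9 and 24.2 FPKM in the GFP wake libraries, with no overlap. Its log2 difference was -0.74 (SE 0.18, limma adjusted p = 0.0878), -0.54 (adjusted p = 0.0147) without Fxr1 wake replicate 1, and -0.26 (SE 0.07, adjusted p = 0.135) with the GC and length trend removed. Dlgap1 had 43.6, 73.8 and 79.2 FPKM in the Fxr1 wake libraries and 78.3, 75.2 and 78.0 FPKM in the GFP wake libraries. Its difference of -0.28 (SE 0.22, limma adjusted p = 0.363) rested on Fxr1 wake replicate 1, without which it was -0.01 (adjusted p = 0.883).

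Shank2 had 3.39, 5.02 and 5.95 FPKM in the Fxr1 wake libraries, against 6.44, 8.65 and 11.9 FPKM in the GFP wake libraries. The groups lay side by side without overlap, with a log2 difference of -0.78 (SE 0.25, limma adjusted p = 0.0946). Shank1 had 2.75, 4.91 and 8.07 FPKM in the Fxr1 wake libraries and 7.66, 8.72 and 12.5 FPKM in the GFP wake libraries, and Fxr1 wake replicate 3 lay within the GFP wake range. Shank3 had 4.38, 5.56 and 7.70 FPKM in the Fxr1 wake libraries and 7.72, 7.11 and 8.96 FPKM in the GFP wake libraries, likewise with replicate 3 inside the range. The log2 differences were -0.83 (SE 0.33, limma adjusted p = 0.123) for Shank1 and -0.40 (SE 0.19, limma adjusted p = 0.164) for Shank3. With the GC and length trend removed they were 0.01 for Shank1 and 0.49 for Shank3 (adjusted p = 0.136), and -0.32 for Shank2 (adjusted p = 0.286).

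**Figure D2:**
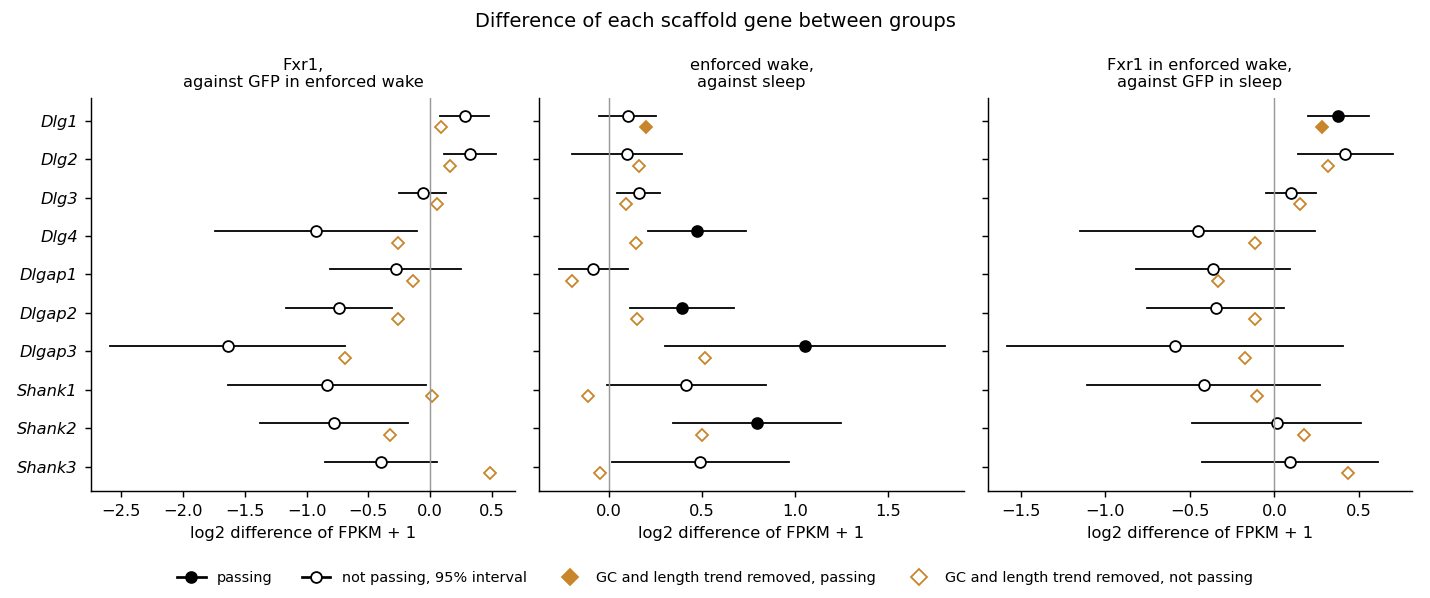
Difference of each scaffold gene (log2 of FPKM + 1, x axis) in 3 comparisons: circles with 95% intervals are from the limma fit of the deposited values, diamonds have the trend with GC content and transcript length subtracted, and filled symbols pass at an adjusted p below 0.05. Dlg4, Dlgap2, Dlgap3 and Shank2 pass as higher in enforced wake against sleep by the deposited values, and with the trend removed only Dlg1 passes, in that comparison and in Fxr1 wake against GFP sleep.

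Fxr1 wake was also set against GFP sleep, to see where the scaffold genes stood relative to undisturbed sleep. Here 1 of 10 passed, Dlg1 as higher, where 7.79% of 14617 genes passed and 3.20% passed as higher. The Dlg1 values of 60.3, 52.9 and 57.8 FPKM in Fxr1 wake lay above those of 40.5, 46.6 and 43.7 FPKM in GFP sleep, and the rise was 0.38 (SE 0.08, 95% interval 0.20 to 0.56, limma adjusted p = 0.0277). It was 0.28 (adjusted p = 0.0158) with the GC and length trend removed, where 12.8% of all genes passed and 7.2% as higher. It did not pass without GFP sleep replicate 1, 2 or 3 (0.106, 0.0517 and 0.0989) or Fxr1 wake replicate 3 (0.0529) in the fit of the remaining 8 libraries. Dlg2 was also higher in every Fxr1 wake library than in any GFP sleep library, with a log2 difference of 0.42 (SE 0.12, limma adjusted p = 0.0734), 1.33-fold by the means, and passed without GFP sleep replicate 2 (0.56, adjusted p = 0.0337). It was 0.36 (adjusted p = 0.118) without Fxr1 wake replicate 1, 0.32 (adjusted p = 0.0729) with the GC and length trend removed, and 0.02 (adjusted p = 0.933) over coding transcripts alone. Over all genes 32.7% did not overlap and 11.5% lay higher in every Fxr1 wake library. The groups overlapped in the other 8 genes, whose log2 differences were between -0.59 for Dlgap3 (95% interval -1.58 to 0.40) and 0.10 for Dlg3 (95% interval -0.05 to 0.25). Without Fxr1 wake replicate 1 these 8 differences were between -0.15 for Dlgap2 and 0.25 for Shank3. Dlg4 had 28.2, 70.3 and 66.6 FPKM in Fxr1 wake and 74.9, 61.4 and 75.6 FPKM in GFP sleep (-0.45, 95% interval -1.15 to 0.24, limma adjusted p = 0.331), and the difference was -0.04 without Fxr1 wake replicate 1, as that of Dlgap3 was -0.13. Shank2 averaged 4.79 ± 1.29 FPKM in Fxr1 wake and 4.64 ± 0.323 FPKM in GFP sleep (SD, n = 3 each), a difference of 0.01 with an interval of -0.49 to 0.51 (0.20 without Fxr1 wake replicate 1).

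The 10 genes span much of the range of base composition. The longest transcripts of Dlg1 and Dlg2 have 43.8% and 44.5% G and C, those of Dlg3 and Dlgap1 50.4% and 50.9%, those of Shank2, Dlgap2 and Dlg4 55.0%, 55.3% and 57.9%, and those of Shank1, Shank3 and Dlgap3 61.4%, 62.4% and 63.9%, the last at the 99.5th percentile of coding genes. Over all coding genes in 5 equal groups by GC content, the median log2 difference between Fxr1 wake and GFP wake was 0.30, 0.14, -0.05, -0.30 and -0.66 from the lowest to the highest group. Between GFP wake and GFP sleep it was -0.18, -0.10, 0.00 (-0.0014), 0.12 and 0.31. The 2 scaffold genes with the least G and C were the 2 that were higher in all Fxr1 wake libraries, and the 4 genes that were lower in all Fxr1 wake libraries had 55.0% or more. Shank1 and Shank3, with 61.4% and 62.4%, overlapped between Fxr1 wake and GFP wake. With the trend removed the median of the 10 genes was -0.06 between Fxr1 wake and GFP wake, with 5 positive and 5 negative differences, and 0.15 between GFP wake and GFP sleep, with 7 positive and 3 negative.

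**Figure D3:**
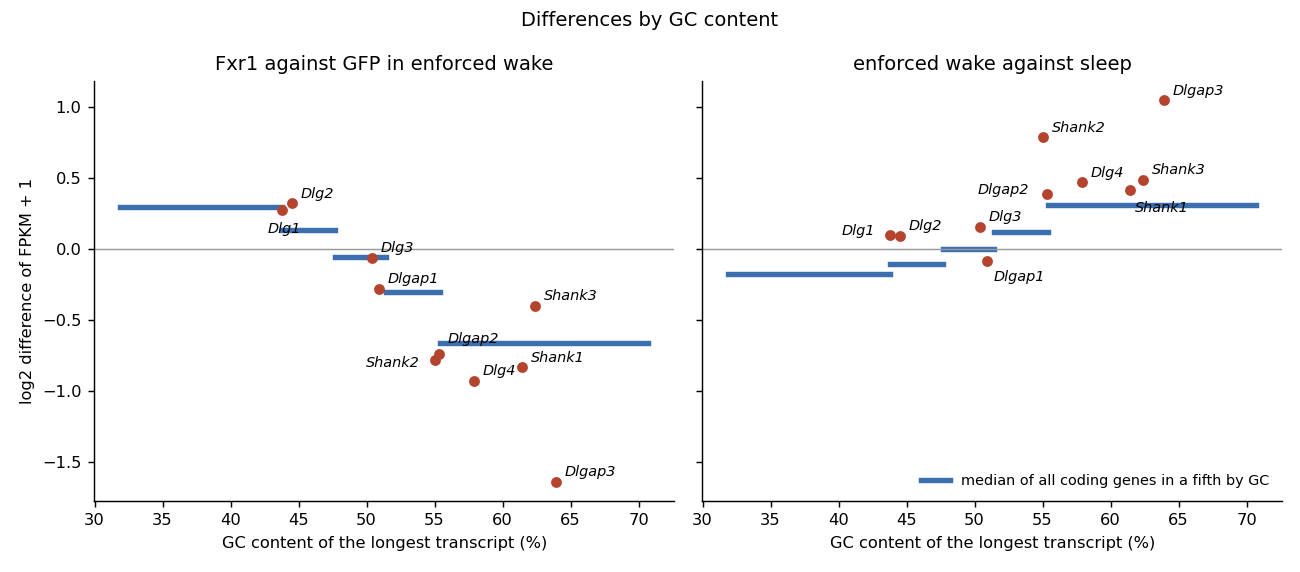
Log2 difference of FPKM + 1 (y axis) against the GC content of the longest transcript (x axis, %) for the 10 scaffold genes (red points) in Fxr1 wake against GFP wake (left) and GFP wake against GFP sleep (right); each blue bar spans 1 of 5 equal groups of all coding genes by GC content at the height of their median. The scaffold genes slope roughly as the medians do, with scatter. On the right Dlg1 and Dlg2 are positive where the medians are negative, and Shank2 lies above Shank1 and Shank3, which have more G and C. Dlgap3, with the highest GC content, is farthest out in both panels.

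The 2 main transcripts of Dlg4 shown above share 2524 of the 2708 exon bases of Dlg4-201, so the split of reads between them is an estimate. Dlg4-203 took 56.5%, 7.33% and 77.2% of the gene in the Fxr1 wake libraries, 37.2%, 85.5% and 32.5% in the GFP wake libraries, and 40.7%, 75.7% and 42.3% in the GFP sleep libraries. Dlg4-201 took 22.9%, 88.7% and 16.9% in Fxr1 wake, 58.0%, 7.64% and 63.2% in GFP wake, and 55.5%, 18.8% and 52.3% in GFP sleep. The 2 traded places between replicates of each group, so the form with the palmitoylated cysteines could not be set apart from the other by group, while their sum was steadier.

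Dlgap1-211 was the scaffold transcript that passed in enforced wake against sleep (1 transcript, where 3.62% of 29116 transcripts passed). It had 36.7, 40.3 and 38.7 FPKM in the GFP wake libraries, against 47.6, 49.2 and 48.5 FPKM in the GFP sleep libraries, with no overlap. The fall was -0.32 (SE 0.05, limma adjusted p = 0.0414), and it did not pass with any 1 of the 6 libraries left out (adjusted p of 0.0833 to 0.124). Dlgap1-208, whose longer coding start is shown above, had 14, 18.1 and 21.3 FPKM in GFP wake and 11.3, 3.63 and 12.5 FPKM in GFP sleep, higher in each GFP wake library without passing (1.02, SE 0.45, limma adjusted p = 0.264). In the Fxr1 wake libraries Dlgap1-208 had 1.14, 6.80 and 9.66 FPKM, below all GFP wake libraries (-1.72, SE 0.62, limma adjusted p = 0.234; -1.03 and 0.115 without Fxr1 wake replicate 1). Dlgap1-211 had 21.6, 44.4 and 45.8 FPKM there, on either side of the GFP wake range. All exon bases of both, 5276 in Dlgap1-211 and 2895 in Dlgap1-208, lie in other Dlgap1 transcripts, so their levels rest on an estimated split of reads. Dlgap1-211 has 46.8% G and C over its whole length and Dlgap1-208 has 58.1%, and no correction for base composition was made for transcripts. As shares of the gene, no scaffold transcript passed in any of the 3 comparisons with limma, where 0.736% of transcripts passed in Fxr1 wake against GFP wake, 0.466% in GFP wake against GFP sleep and 0.199% in Fxr1 wake against GFP sleep. By level, 0 scaffold transcripts passed with limma in Fxr1 wake against GFP sleep, where 0.818% of all transcripts did.

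Most of the Dlg2 level lay in Dlg2-208 (ENSMUST00000138389), which GENCODE lists as a processed transcript without a coding sequence and which shares 2916 of its 3218 bases with the coding Dlg2-204. It had 89.1, 75.2 and 74.9 FPKM in Fxr1 wake, 56.3, 59.8 and 58.2 FPKM in GFP wake, and 49.6, 67.9 and 13 FPKM in GFP sleep. Dlg2-204 had 39.0, 37.5 and 38.7 FPKM in Fxr1 wake, 33.9, 33.1 and 32.7 FPKM in GFP wake, and 31.6, 33.1 and 50.7 FPKM in GFP sleep. GFP sleep replicate 3 was the exception in both, low in the first and high in the second. The difference of Dlg2-208 between Fxr1 wake and GFP wake was 0.45 (SE 0.09, limma adjusted p = 0.159), and it passed without Fxr1 wake replicate 1 (0.36, adjusted p = 0.0395). Over coding transcripts alone, Dlg2 differed by 0.19 (SE 0.07, adjusted p = 0.107) between Fxr1 wake and GFP wake and by -0.17 (SE 0.18, adjusted p = 0.495) between GFP wake and GFP sleep.

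Shank3 was divided among 4 main transcripts, of which Shank3-201 (ENSMUST00000039074) passed in Fxr1 wake against GFP wake (1 transcript, limma adjusted p = 0.0216, where 0.895% of 28837 transcripts passed). It was listed at 0 in all 3 Fxr1 wake libraries, against 2.96, 2.69 and 5.14 FPKM in the GFP wake libraries, and at 2.54, 0 and 0 FPKM in the GFP sleep libraries. All of its 7131 exon bases lie in other Shank3 transcripts, so that a value of 0 can be an estimate that gave its reads to them, and the call was lost without GFP wake replicate 1 or 2 or Fxr1 wake replicate 2 or 3 (adjusted p of 0.0546 to 0.0650). Shank3-205 (ENSMUST00000135214), listed as a retained intron of 596 bases, had 2.06, 2.20 and 3.14 FPKM in Fxr1 wake, 1.26, 0.271 and 1.16 FPKM in GFP wake, and 0.503, 2.06 and 3.11 FPKM in GFP sleep. Coding transcripts therefore took 8.80%, 33.4% and 31.0% of the Shank3 level in Fxr1 wake, 80.1%, 91.4% and 83.6% in GFP wake, and 86.3%, 12.1% and 26.0% in GFP sleep. The share was high in all GFP wake libraries and in GFP sleep replicate 1, and low in the rest. Over coding transcripts alone, Shank3 rose in GFP wake against GFP sleep by 1.46 (SE 0.38, adjusted p = 0.0369) and differed by -1.70 (SE 0.33, adjusted p = 0.0970) in Fxr1 wake against GFP wake. That alternative was chosen after the data were seen, and 27.9% and 0.404% of all genes passed in it in these comparisons. It depends on the same division of reads, and the sum of all Shank3 transcripts did not pass in either (limma adjusted p = 0.109 and 0.164).

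**Figure D4:**
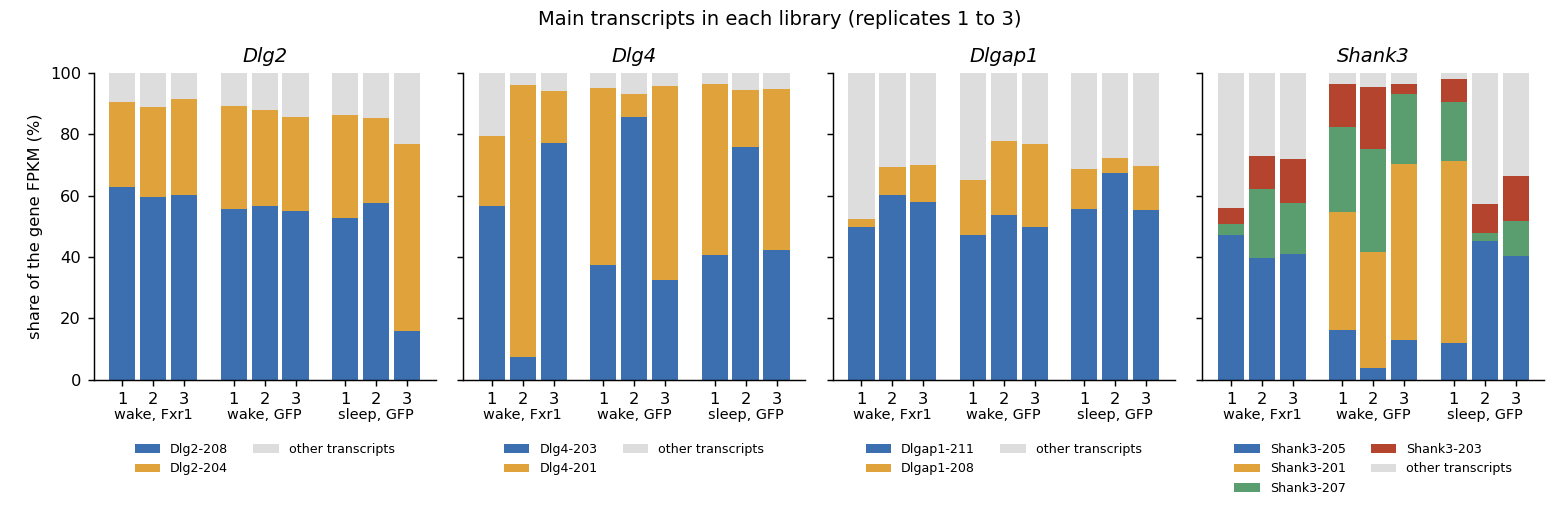
Share (%, y axis) of the gene level taken by each main transcript of Dlg2, Dlg4, Dlgap1 and Shank3 in each library, with replicates 1 to 3 of Fxr1 wake, GFP wake and GFP sleep from left to right and grey for all other transcripts. Dlg4-203 and Dlg4-201 trade places between replicates of a group, and Shank3-201 is present in the GFP wake libraries and GFP sleep replicate 1 alone.

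Other main transcripts are given for their share of the gene level. Dlgap3-202 (ENSMUST00000106092), the main form of Dlgap3, had 1.25, 2.40 and 7.18 FPKM in Fxr1 wake, 13.4, 13.7 and 17.8 FPKM in GFP wake, and 9.33, 2.24 and 8.17 FPKM in GFP sleep. Its log2 difference was -1.99 (SE 0.49, limma adjusted p = 0.196; 0.147 without Fxr1 wake replicate 1 and 0.0338 without replicate 3) between Fxr1 wake and GFP wake and 1.23 (SE 0.47, limma adjusted p = 0.214) between GFP wake and GFP sleep. Shank2-201 (ENSMUST00000097929) had 0.951, 0.789 and 1.79 FPKM in Fxr1 wake, 2.86, 3.44 and 5.95 FPKM in GFP wake, and 1.39, 2.67 and 1.37 FPKM in GFP sleep, with a difference of -1.20 (SE 0.30, limma adjusted p = 0.198; -1.14 and 0.192 without Fxr1 wake replicate 1) between Fxr1 wake and GFP wake. In both, the GFP wake libraries were above all other libraries. By the p and q values of the authors' deposited tables, 8 of the 96 scaffold transcripts had a p below 0.05 in Fxr1 wake against GFP wake and 11 in the table of sleep and enforced wake, where 9.1% and 9.73% of all transcripts did. None had a q below 0.05 in either, where 0.0303% and 0.0175% of all transcripts did. The lowest q of a scaffold transcript in the authors' deposited table of Fxr1 was 0.302, for Shank3-201, with a fold of 0.239 of Fxr1 over GFP (p = 0.0113).

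The partners of the scaffolds were taken as 4 lists with 60 genes, of which 59 were tested. Their counts in enforced wake against sleep stand against 28.3% of all genes passing, 15.7% as higher and 12.7% as lower. Here 7 of 17 partners of Dlgap and Shank passed as higher and 1 as lower, with a median log2 difference of 0.31. Of 23 partners of Dlg, 7 were higher and 3 lower (median 0.10). Of 8 tested relatives of Dlg and Dlgap, such as Cask and Dlgap4, 3 were higher and 1 lower (median 0.18). Of 11 genes listed for the attachment or removal of palmitate, whose action on PSD-95 was not tested here, 2 were higher and 5 lower (median -0.22). For these 4 lists in turn, the counts of higher and lower genes were 5 and 1, 1 and 3, 1 and 1, and 1 and 2 with the GC and length trend removed, where 23.6% of all genes passed. They were 3 and 1, 2 and 1, 0 and 1, and 0 and 0 in the fit of all 9 libraries, where 9.56% did. With 1 library left out, the palmitoylation list had 2 higher and 1 to 4 lower genes.

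Homer1, which links Shank to group I metabotropic glutamate receptors and has a short form induced by activity, had 284, 233 and 225 FPKM in Fxr1 wake, 184, 200 and 186 FPKM in GFP wake, and 102, 117 and 109 FPKM in GFP sleep. No library of a group overlapped with another group. The difference between Fxr1 wake and GFP wake, 0.37, did not pass (SE 0.11, limma adjusted p = 0.0912). Over all genes, 20.3% lay higher in every Fxr1 wake library than in any GFP wake library. Homer1 rose by 0.80 (SE 0.07, limma adjusted p = 0.00160) in GFP wake against GFP sleep and by 1.17 (SE 0.10, limma adjusted p = 0.00145) in Fxr1 wake against GFP sleep. With the GC and length trend removed these rises were 0.97 (adjusted p = 0.000502) and 0.96 (adjusted p = 0.000141). Baiap2, a Shank-binding regulator of actin also known as IRSp53, had 77.5, 76.6 and 80.2 FPKM in GFP wake, against 46.2, 43.5 and 42.9 FPKM in GFP sleep, a rise of 0.81 (SE 0.05, limma adjusted p = 0.00104) that was 0.48 with the trend removed (adjusted p = 0.00646) and did not pass in the fit of all 9 libraries (adjusted p = 0.221). In the Fxr1 wake libraries Baiap2 had 15.7, 59.7 and 48.7 FPKM, below all GFP wake libraries, as 32.3% of all genes were. That difference did not pass (-1.10, SE 0.46, limma adjusted p = 0.131).

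Arhgef7, an exchange factor for small GTPases that binds Shank, also rose in GFP wake, to 37.9 ± 0.544 FPKM against 26.3 ± 1.07 FPKM in GFP sleep (SD, n = 3 each; limma adjusted p = 0.00276). Adam23, a receptor of the secreted protein Lgi1, fell to 40.8 ± 1.78 FPKM in GFP wake, against 56.0 ± 3.67 FPKM in GFP sleep (limma adjusted p = 0.00719), and Frmpd4, which binds PSD-95, to 16.9 ± 0.414 FPKM against 21.3 ± 0.672 FPKM (limma adjusted p = 0.00984). Arhgef7, Adam23 and Frmpd4 passed with the GC and length trend removed as well. Of the 59 genes, 1 passed in Fxr1 wake against GFP wake: Prr7, a membrane protein that binds PSD-95, had 0, 0.0587 and 0.210 FPKM in Fxr1 wake, against 1.19, 1.49 and 1.58 FPKM in GFP wake (-1.15, SE 0.11, limma adjusted p = 0.0263), and its difference was -0.06 (adjusted p = 0.873) with the trend removed. Prr7 did not pass without GFP wake replicate 1, 2 or 3 or Fxr1 wake replicate 2 (adjusted p of 0.0804 to 0.188). Without Fxr1 wake replicate 1, where 22.8% of all genes passed in that comparison, 5.69% as higher and 17.1% as lower, 2 of 17 partners of Dlgap and Shank passed as higher and 6 as lower. So did 3 and 8 of 23 partners of Dlg, 1 and 3 of 8 relatives, and 2 and 3 of 11 genes of palmitoylation. Tanc1, a postsynaptic scaffold that binds PSD-95, rose beside Homer1 in Fxr1 wake against GFP sleep, with 4.04, 3.82 and 5.55 FPKM in Fxr1 wake against 2.59, 2.86 and 2.51 FPKM in GFP sleep (0.57, SE 0.12, limma adjusted p = 0.0313). These 2 were the partner genes called there, where 7.79% of all genes passed and 3.20% as higher. Tanc1 did not pass without the filter on low values (adjusted p = 0.0597) or without GFP sleep replicate 1, 2 or 3 (0.108, 0.0697 and 0.112), and passed with the GC and length trend removed (0.61, adjusted p = 0.0112).

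Markers of other cell types were measured beside these genes. In Fxr1 wake against GFP wake, 1 of 10 astrocyte markers passed as lower (Gfap, -1.62), 1 of 10 microglia markers passed as lower (Trem2), and no marker of oligodendrocytes, vessels, excitatory, inhibitory or striatal neurons passed. The 8 excitatory neuron markers summed to 475 to 582 FPKM in Fxr1 wake, 597 to 682 FPKM in GFP wake and 558 to 616 FPKM in GFP sleep. The 10 oligodendrocyte markers summed to 141 to 159 FPKM in Fxr1 wake, 157 to 180 FPKM in GFP wake and 109 to 170 FPKM in GFP sleep. The 8 inhibitory neuron markers summed to 332 to 344 FPKM in Fxr1 wake, 360 to 397 FPKM in GFP wake and 315 to 378 FPKM in GFP sleep, and the 10 microglia markers to 30.7 to 35.5 FPKM in Fxr1 wake, 38.5 to 42.2 FPKM in GFP wake and 31.4 to 45.9 FPKM in GFP sleep. The 8 vessel markers summed to 15.9 to 23.3 FPKM over all libraries and the 7 striatal neuron markers to 57.5 to 75.0 FPKM. In enforced wake against sleep, the markers that passed as higher and lower were 1 and 2 for excitatory neurons, 2 and 0 for inhibitory neurons, 1 and 1 for astrocytes, 1 and 1 for oligodendrocytes, 1 and 0 for microglia, 0 and 1 for vessels and 0 and 1 for striatal neurons, of lists of 10 or fewer genes, where 15.7% of all genes passed as higher and 12.7% as lower. The summed markers of excitatory neurons, inhibitory neurons, astrocytes and microglia were thus lower in all Fxr1 wake than in all GFP wake libraries, as were Dlg4, Dlgap2, Dlgap3 and Shank2, and their part in those results was not tested.

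The genes whose course over the 9 libraries was most like that of each scaffold gene were found by the root mean square of the difference of mean-centred log2(FPKM + 1) values, among 8143 genes with a mean of at least 5 FPKM. For Dlg1 it was Il1rap (0.030), for Dlg2 Ccnt2 (0.081) and for Dlg3 Fam120b (0.030). For Dlg4 it was Atg101 (0.058), for Dlgap1 Anxa6 (0.069), for Dlgap2 Cabin1 (0.040) and for Dlgap3 Mbd3 (0.198). For Shank1 it was Grik5 (0.134), for Shank2 Zmiz1 (0.153) and for Shank3 Cerk (0.145). Among the scaffold genes themselves, Dlg1 and Dlg2 were each other's nearest (0.110), as were Dlg4 and Dlgap2 (0.210).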

How the data were processed

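Ribosome-associated RNA was measured in 9 libraries, 3 per group. The submitters' processing notes name HISAT2 (2.1.0), SAMtools (1.9), StringTie (1.3.4d) and the build GRCm38. The authors deposited FPKM per transcript and library in 2 tables, whose GFP wake values are identical. Per the file headers, each also holds the authors' fold ratio, p-value and q-value per transcript, with no tool named in the sources used here. As FPKM are scaled to a library's total, every value is relative to the rest of that library.

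FPKM were summed per gene name. The fit used limma (3.58.1, R 4.3.3; lmFit, eBayes with trend, 2-sided) on log2(FPKM + 1), for genes or transcripts with a mean of at least 0.5 FPKM, with Benjamini-Hochberg adjustment over all of them and a threshold of 0.05. Adding 1 understates differences of low genes. The first 2 comparisons used their own 6 libraries, and Fxr1 wake against GFP sleep all 9. With 3 against 3 libraries an exact permutation test cannot go below 0.1. For the GC and length correction, each library's deviations were fitted with splines (5 degrees of freedom each) over coding genes with a mean of at least 1 FPKM. GENCODE annotation and sequence (GRCm38) held 99.1% of the transcripts. Main transcripts are those with at least 10% of their gene's FPKM, at most 4 per gene. Partner genes are named by the 3 smallest p in each direction among those passing, per comparison. A gene that this rule names is not reported here. Alternatives were another pseudocount (0.1 FPKM), no filter, other scalings, a fit of all 9 libraries, a replicate block, and each library left out. The fit was checked on simulated data. The scaffold genes and all lists were chosen with earlier results of these data known.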

Additional observations from a re-analysis of the deposited data

How the results depend on the processing

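Over the alternatives, the scaffold genes called in enforced wake against sleep, 4 by the values given, were 0 without the filter on low values, 0 in a fit of all 9 libraries, 1 with the GC and length trend removed (1 also with that removal and the replicate block), and 0 to 3 with 1 library left out. Over all genes the count of 4156 was 1398 with all 9 libraries, 2235 with the trend removed and the block, and 1822 to 3631 with 1 library left out. In Fxr1 wake against GFP wake, 0 scaffold genes became 4 with all 9 libraries and 0 to 5 with 1 library left out, the 5 without Fxr1 wake replicate 1. The 60 genes of that comparison became 29 with a pseudocount of 0.1, 4 without the filter, 36 with libraries scaled to protein-coding totals, 3366 with all 9 libraries, and 2 to 3316 with 1 library left out. In Fxr1 wake against GFP sleep the 1 scaffold gene became 0 to 1, and the 1138 genes became 248 to 1440 with 1 library left out and 1871 with the trend removed. Scaffold transcripts called were 0 without the filter and 0 to 1 with 1 library left out in enforced wake against sleep, 0 to 2 in Fxr1 wake against GFP wake and 0 to 1 in Fxr1 wake against GFP sleep. As shares of the gene, 1 passed in Fxr1 wake against GFP wake with a pseudocount of 0.1, and 0 to 1 in Fxr1 wake against GFP sleep with 1 library left out.

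Same-numbered libraries did not deviate together more than others (correlations of -0.26 to 0.18, against -0.40 to 0.44 between different numbers). With 3 libraries per group this cannot decide whether the numbers pair the libraries, and the labels do not say. With the replicate number as a block, the genes called were 3116 in enforced wake against sleep, 1 in Fxr1 wake against GFP wake (1 also with the GC and length trend removed) and 372 in Fxr1 wake against GFP sleep. The scaffold genes called with the block were 4, 0 and 0 in these comparisons, and the scaffold transcripts 0 in each. In enforced wake against sleep the palmitoylation genes were then 2 higher and 1 lower, and neither Prr7 (adjusted p = 0.0931) nor Tanc1 (0.0775) passed in the comparison that called it.

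Some uncalled differences changed sign. In enforced wake against sleep, Fxr1 was -0.024 with median centring and -0.0014 to 0.081 with 1 library left out (-0.0004 without GFP sleep replicate 3). Dlg2 was -0.17 over coding transcripts, an alternative chosen after seeing the data, and -0.019 to 0.24 with 1 library left out, while Shank1 was -0.12 and Shank3 -0.051 with the trend removed. In Fxr1 wake against GFP wake, Dlg3 was 0.094 with median centring, which moved the median of all genes from -0.06 to 0.10, and 0.057 with the trend removed, where Shank1 was 0.011 and Shank3 0.49. The values with the trend removed were the same with the block. In Fxr1 wake against GFP sleep, Shank2 was -0.0017 and Shank3 -0.23 over coding transcripts, and -0.13 to 0.20 and -0.093 to 0.32 with 1 library left out. The cause of these changes was not tested. With 1 library left out an arm has 2 libraries, which lowers what can pass.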
